A study of Mus musculus with 7 samples.

Results

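Matrix metalloproteinases (MMPs) are zinc-dependent enzymes that cut the proteins of the extracellular matrix. The 10 genes described here, Mmp2, Mmp3, Mmp8, Mmp9, Mmp10, Mmp11, Mmp12, Mmp13, Mmp14 and Mmp19, were chosen by name from the 55450 genes of the count table, and all 10 passed the filter on low counts that left 17959 genes for testing. They were measured by bulk RNA sequencing of dorsal skin from aged (24-month) male wild type C57BL/6 mice. Skin was taken after 5 days of topical treatment with 5 µM ABT-263 (navitoclax, an inhibitor of anti-apoptotic BCL-2 family proteins that is used to remove senescent cells) in 3 mice, numbered 476, 477 and 478, or with the DMSO vehicle alone in 4 mice, numbered 480 to 483. In both groups the hair had been removed with clippers and a depilatory lotion, and the treated area was kept under a semi-occlusive film dressing. Each mouse gave 1 library, no untreated skin was sequenced, and the labels name no batch.

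Most MMPs are secreted as inactive proenzymes and start to work once their propeptide is cut off by another protease, such as plasmin or another MMP. Tissue inhibitors of metalloproteinases (TIMPs) then bind the active enzymes. In skin, dermal fibroblasts are the main source of the gelatinase MMP2 and of the membrane-bound collagenase MMP14, which activates pro-MMP2 at the cell surface. The stromelysin MMP10 is known from keratinocytes at wound edges, the collagenase MMP8 and the gelatinase MMP9 from neutrophil granules, and the elastase MMP12 from macrophages. The levels measured here are of RNA and say nothing on how much proenzyme was activated. In bulk skin, fewer cells of a type and less RNA per cell cannot be told apart.

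A well-studied control element upstream of several MMP genes is the binding site of AP-1, a dimer of Fos and Jun proteins whose core letters are TGANTCA. RefSeq promoters (GRCm38.p6) were at hand for 7 of the 10 members, and those of Mmp2, Mmp9 and Mmp19 were not used here. The letters TGANTCA, which read the same on both strands, were present within 250 bases upstream of a start in Mmp3, Mmp10, Mmp12 and Mmp13 and were not in the windows of Mmp8, Mmp11 and Mmp14. By comparison, 6.75% of 32851 mouse promoter windows of that length held them. All 4 members with the letters lie in the MMP cluster of chromosome 9. Of the MMP genes with a promoter in the table, 8 of 10 in the cluster and 0 of 8 elsewhere held them at any start. Mmp2, Mmp9, Mmp16, Mmp17 and Mmp19, all outside the cluster, are not among those counted, so these counts do not cover the whole family. The last 120 bases before the start are printed 5′ to 3′ on the + strand, with AP-1 letters in capitals, first for the 4 members that hold them and then for Mmp8, from the same cluster, and Mmp14, from chromosome 14, which do not.
Mmp3, chr9:7445702-7445821: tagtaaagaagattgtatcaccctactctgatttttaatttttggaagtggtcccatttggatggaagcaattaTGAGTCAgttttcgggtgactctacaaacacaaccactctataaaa
Mmp10, chr9:7502222-7502341: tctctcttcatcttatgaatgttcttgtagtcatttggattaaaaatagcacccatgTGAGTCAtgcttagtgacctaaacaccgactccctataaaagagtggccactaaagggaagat
Mmp12 (downstream start), chr9:7347254-7347373: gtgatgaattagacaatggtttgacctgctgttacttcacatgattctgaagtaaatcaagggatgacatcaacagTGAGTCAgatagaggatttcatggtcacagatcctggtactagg
Mmp13, chr9:7272394-7272513: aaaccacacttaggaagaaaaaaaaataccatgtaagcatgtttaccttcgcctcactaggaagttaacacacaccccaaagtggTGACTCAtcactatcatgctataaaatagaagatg
Mmp8, chr9:7558309-7558428: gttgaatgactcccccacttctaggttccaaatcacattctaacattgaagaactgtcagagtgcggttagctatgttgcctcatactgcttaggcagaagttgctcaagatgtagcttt
Mmp14, chr14:54431478-54431597: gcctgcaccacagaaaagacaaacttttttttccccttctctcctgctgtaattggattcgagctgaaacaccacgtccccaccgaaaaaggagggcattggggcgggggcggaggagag

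The AP-1 letters began 46 bases before the start of Mmp3, 63 before that of Mmp10, 44 before the downstream of the 2 starts of Mmp12 and 35 before that of Mmp13. Mmp3, Mmp10 and Mmp12 carried TGAGTCA and Mmp13 carried TGACTCA. The letters TATAA, read on both strands, were found in 3 of the 7 members with a promoter in the table (Mmp3, Mmp10 and Mmp13) and in 22.8% of all windows. Such matches are a description of the sequence, and binding was not measured.

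The DMSO libraries held 20344364 to 26824123 counted read pairs and the ABT-263 libraries 27325963 to 43562330, so depth and treatment ran in the same direction. With all libraries thinned to the smallest, 8 members still passed the test. Skin markers were abundant in every library, with summed keratins and other basal keratinocyte markers at 13638 to 35630 CPM (counts scaled to library size, with TMM factors) and fibroblast markers at 3905 to 8519 CPM. Skeletal muscle markers were also abundant, at 22232 to 47573 CPM after DMSO and 15352 to 23800 CPM after ABT-263. ABT-263-treated mouse 476 stood apart from the other ABT-263-treated mice in the MMP genes. In 6 of the 10 members (60.0%) its level was more than 3-fold above the mean of mice 477 and 478, against 607 of all genes tested (3.38%), a limit chosen after the values were seen. For this reason, fold changes and ratios of the members are given with and without mouse 476.

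With edgeR's quasi-likelihood test and a threshold of 0.05 on the adjusted p-value, 8 of the 10 members were higher after ABT-263 and 0 were lower, while 12.4% of all genes tested were higher. In the same 8 members every ABT-263-treated mouse lay above every DMSO-treated mouse, as did 18.7% of all genes tested. Mmp8 and Mmp14 did not pass. The median log2 fold change was 3.19 over the members and 0.00 over all genes tested. Without mouse 476, 4 members passed (Mmp2, Mmp9, Mmp12 and Mmp13), 6.01% of all genes tested were higher, and the members' median log2 fold change was 1.34. Without DMSO-treated mouse 482, 0 members passed in edgeR, with 9 at an unadjusted p under 0.05, and all 10 log2 fold changes stayed positive whichever mouse was left out.

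**Figure D1:**
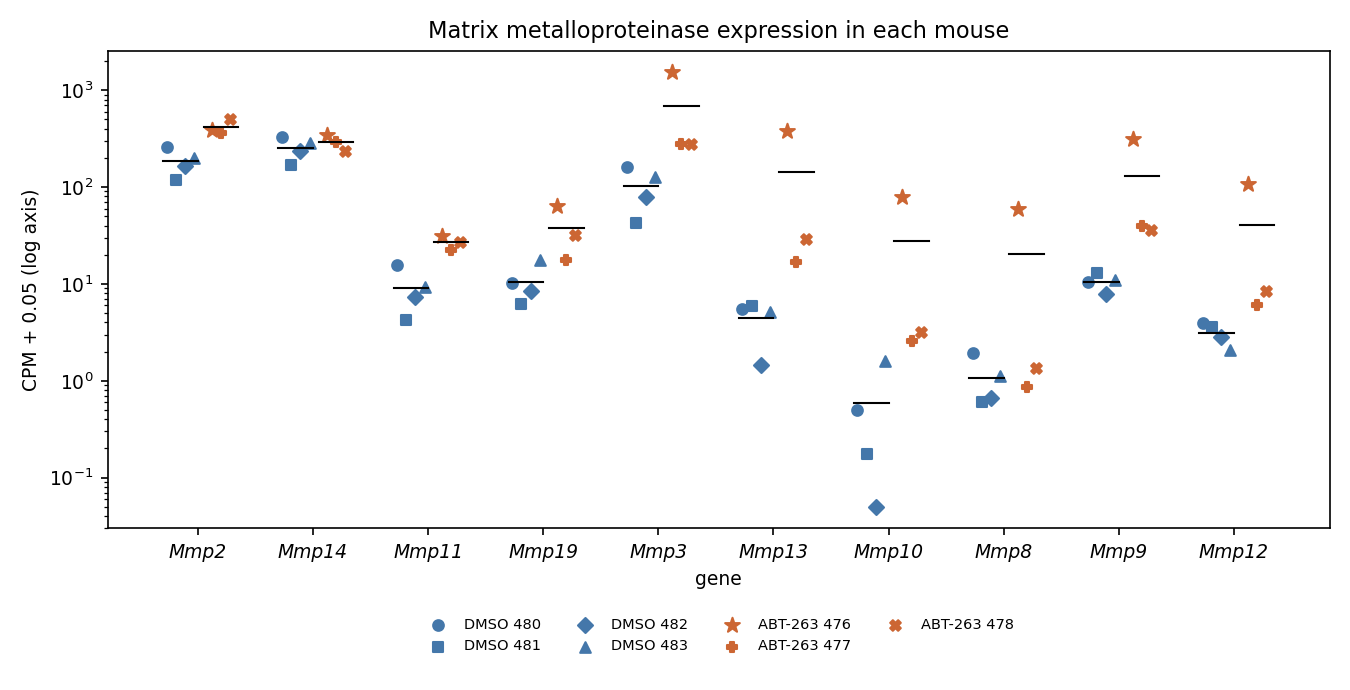
Level of each of the 10 members in each of the 7 libraries, in CPM on a log axis (CPM + 0.05), with 1 point per mouse and a bar at the group mean. In 8 members the 3 ABT-263-treated mice lie above the 4 DMSO-treated mice, the groups overlap in Mmp8 and Mmp14, and mouse 476 is far above the other ABT-263-treated mice in Mmp3, Mmp8, Mmp9, Mmp10, Mmp12 and Mmp13.

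Per length of exon, the members fell into 3 tiers in DMSO-treated skin. The highest held Mmp3 at 56.8 ± 29.1 RPKM, Mmp2 at 54.8 ± 17.4 RPKM and Mmp14 at 42.7 ± 11.3 RPKM (SD, n = 4). The middle held Mmp11 at 3.28 ± 1.73 RPKM, Mmp19 at 2.98 ± 1.38 RPKM, Mmp9 at 2.97 ± 0.578 RPKM and Mmp13 at 1.66 ± 0.773 RPKM (SD, n = 4). Mmp8 at 0.424 ± 0.253 RPKM, Mmp12 at 0.423 ± 0.117 RPKM and Mmp10 at 0.31 ± 0.412 RPKM were the lowest (SD, n = 4). Neighbours within a tier differed by less than the sum of their SDs, and neighbours across tiers by more. The length used was the union of all exons, which for Mmp12 (7237 bases) and Mmp14 (5960 bases) is far above that of the longest transcript (3607 and 3238 bases). Per base of the longest transcript, DMSO-treated skin had 78.7 ± 20.9 RPKM of Mmp14, the highest mean of the members, and 0.849 ± 0.234 RPKM of Mmp12 (SD, n = 4), which then differed from Mmp13 by less than the sum of their SDs. The order within the highest tier and the step between Mmp13 and Mmp12 thus rest on the length used. After ABT-263 the means ran from 385 ± 400 RPKM in Mmp3 and 124 ± 22.0 RPKM in Mmp2 down to 5.64 ± 8.04 RPKM in Mmp12 (SD, n = 3). Per base of the longest transcript, Mmp12 was at 11.3 ± 16.1 RPKM and Mmp8, at 8.41 ± 13.8 RPKM, was lower (SD, n = 3). The SD was larger than the mean in Mmp3, Mmp8, Mmp9, Mmp10, Mmp12 and Mmp13, the last at 52.9 ± 76.8 RPKM.

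Of Mmp2 and Mmp14, which work as a pair at the fibroblast surface, Mmp2 rose and Mmp14 did not pass the test. Mmp2 (gelatinase A, ENSMUSG00000031740, chromosome 8 from 92827291 to 92853420) was at 257, 119, 163 and 200 CPM in DMSO-treated mice 480, 481, 482 and 483 and at 388, 360 and 500 CPM in ABT-263-treated mice 476, 477 and 478. All 3 treated mice were above the highest control, and mouse 476 lay between the other treated mice. Mmp2 rose 2.25-fold, a log2 fold change of 1.17 (SE 0.26, 95% interval 0.57 to 1.77, adjusted p = 0.0185 from edgeR). Its log2 fold change without mouse 476 was 1.22 (adjusted p = 0.0378 from edgeR). Mmp14 (ENSMUSG00000000957, chromosome 14 from 54431612 to 54445364) was at 328, 170, 237 and 284 CPM after DMSO and at 344, 294 and 233 CPM after ABT-263. The groups overlapped along most of their range. The log2 fold change of Mmp14 was 0.19 (SE 0.24, adjusted p = 0.592 from edgeR), and its 95% interval of -0.36 to 0.74 holds both a small decrease and a 1.5-fold increase. Without mouse 476 the log2 fold change was 0.06 (adjusted p = 0.912 from edgeR).

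Taken within each library, the log2 ratio of Mmp14 to Mmp2 was 0.35, 0.52, 0.54 and 0.50 in the DMSO-treated mice and -0.17, -0.29 and -1.10 in the ABT-263-treated mice. Mmp14 RNA, by counts, was thus above Mmp2 RNA in every control and below it in every treated mouse. The mean log2 ratio fell by 1.00, with an exact permutation test over the 35 splits of the 7 mice at its smallest possible p-value, 0.0286 (two-sided, adjusted p = 0.121 over 17 ratios). The difference without mouse 476 was -1.17.

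Mmp11 and Mmp19 are less studied MMPs that are also found in stromal cells. Mmp11 (stromelysin 3, ENSMUSG00000000901, chromosome 10 from 75923222 to 75936496) was at 15.6, 4.21, 7.34 and 9.33 CPM after DMSO and at 31.2, 22.4 and 27.0 CPM after ABT-263. The treated mice lay close together, all above the highest control, DMSO-treated mouse 480. Mmp11 rose 2.94-fold, a log2 fold change of 1.56 (SE 0.38, adjusted p = 0.0263 from edgeR), and without mouse 476 the log2 fold change was 1.44 (adjusted p = 0.0778 from edgeR). Mmp19 (ENSMUSG00000025355, chromosome 10 from 128790910 to 128800824) was at 10.1, 6.11, 8.47 and 17.4 CPM after DMSO and at 63.9, 17.5 and 31.7 CPM after ABT-263. The groups nearly touched, at DMSO-treated mouse 483 and ABT-263-treated mouse 477. Mmp19 rose 3.57-fold, a log2 fold change of 1.84 (SE 0.49, adjusted p = 0.0329 from edgeR), against 1.23 without mouse 476 (adjusted p = 0.0985 from edgeR). Of the exon bases of Mmp19, 28.3% are shared with genes on the opposite strand, Gm47093 and Tmem198b, and its counts rest on strand-specific counting there.

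Mmp3 and Mmp13 are made by fibroblasts and other cells of inflamed or wounded skin. Mmp3 (stromelysin 1, a protease with broad substrates that also activates other pro-MMPs, ENSMUSG00000043613, chromosome 9 from 7445822 to 7455975) was at 162, 42.9, 78.1 and 126 CPM after DMSO and at 1524, 277 and 277 CPM after ABT-263. Mice 477 and 478 had equal levels to 3 digits, both above every control, and mouse 476 was 5.50-fold above their mean. Mmp3 rose 6.77-fold, a log2 fold change of 2.76 (SE 0.72, adjusted p = 0.0318 from edgeR), against 1.44 without mouse 476 (adjusted p = 0.0915 from edgeR). Mmp13 (the main fibrillar collagenase of rodents, ENSMUSG00000050578, chromosome 9 from 7272514 to 7283331) was at 5.48, 5.86, 1.39 and 5.05 CPM after DMSO and at 378, 16.7 and 29.2 CPM after ABT-263. Even the lowest treated mouse, 477, was above all controls. Mmp13 rose 31.6-fold, a log2 fold change of 4.98 (SE 1.17, adjusted p = 0.0254 from edgeR), and its log2 fold change without mouse 476 was 2.37 (adjusted p = 0.0336 from edgeR).

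Mmp10 (stromelysin 2, ENSMUSG00000047562, chromosome 9 from 7502352 to 7510240) had the largest fold change of the members and nearly no RNA in the controls. It was at 0.45, 0.126, 0 and 1.56 CPM after DMSO and at 78.2, 2.55 and 3.11 CPM after ABT-263. In DMSO-treated mouse 482 it had 0 counts, which allows up to 0.154 CPM (3 counts of that library, counting error only). Mmp10 rose 50.4-fold, a log2 fold change of 5.65 (SE 1.59, 95% interval 1.93 to 9.38, adjusted p = 0.041 from edgeR). Without mouse 476 the log2 fold change was 2.38 and Mmp10 did not pass (adjusted p = 0.199 from edgeR). Mmp3 and Mmp10 are close paralogs. Of the 31-base words of their longest coding transcripts, 14.6% for Mmp3 and 11.9% for Mmp10 also occur in another gene. Only uniquely aligned pairs were counted, and any effect of the shared words on the counts was not measured.

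Among the MMPs of myeloid cells, Mmp9 and Mmp12 rose and Mmp8 did not pass the test. Mmp9 (gelatinase B, ENSMUSG00000017737, chromosome 2 from 164940780 to 164955850) was at 10.5, 12.9, 7.90 and 10.8 CPM after DMSO and at 316, 39.3 and 35.7 CPM after ABT-263. The 4 controls were tight, and mice 477 and 478 were each well above them. Mmp9 rose 12.4-fold, a log2 fold change of 3.63 (SE 0.79, adjusted p = 0.0194 from edgeR), against 1.84 without mouse 476 (adjusted p = 0.0151 from edgeR). Mmp12 (macrophage metalloelastase, ENSMUSG00000049723, chromosome 9 from 7344381 to 7369499) was at 3.89, 3.58, 2.77 and 2.01 CPM after DMSO and at 108, 6.02 and 8.38 CPM after ABT-263. Mice 477 and 478 lay above the controls by a small margin and mouse 476 was 15.0-fold above their mean. Mmp12 rose 13.3-fold, a log2 fold change of 3.73 (SE 1.01, adjusted p = 0.0362 from edgeR), against 1.24 without mouse 476 (adjusted p = 0.0433 from edgeR).

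Mmp8 (neutrophil collagenase, ENSMUSG00000005800, chromosome 9 from 7558456 to 7568485) was at 1.88, 0.548, 0.616 and 1.07 CPM after DMSO and at 59.1, 0.807 and 1.29 CPM after ABT-263. Mice 477 and 478 lay inside the range of the controls, and the difference between the group means came from mouse 476. The log2 fold change of Mmp8 was 4.29 (SE 1.48, 95% interval 0.84 to 7.74, adjusted p = 0.0715 from edgeR) with that mouse and 0.03 (adjusted p = 0.981 from edgeR) without it.

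**Figure D2:**
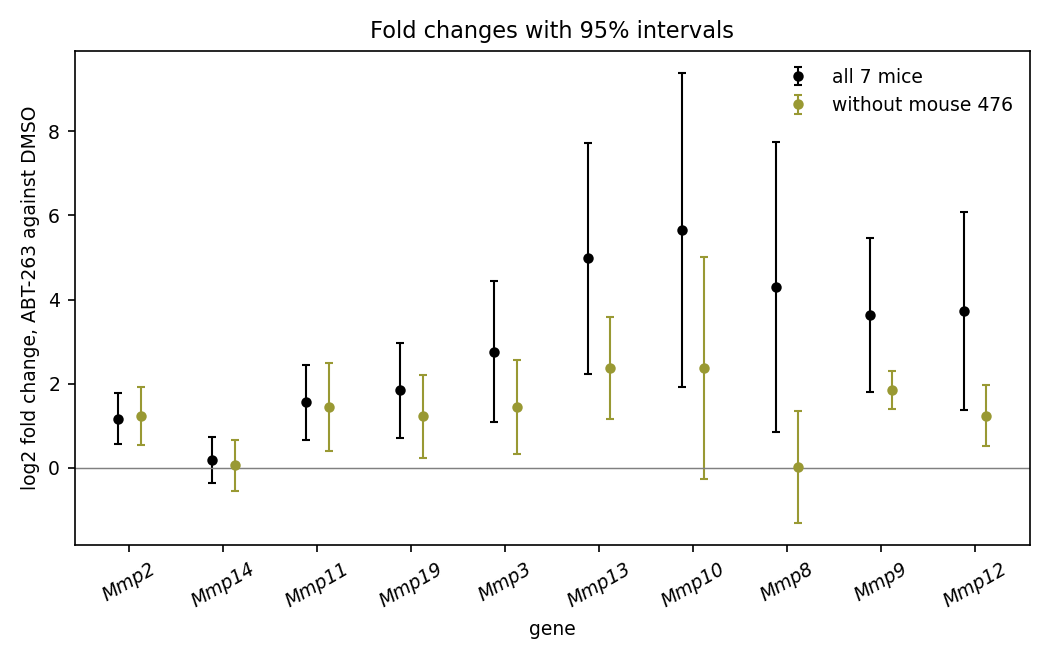
Log2 fold change of each member, ABT-263 over DMSO, from edgeR's fit of all 7 libraries and from the fit without ABT-263-treated mouse 476, with bars for the 95% interval. The change of Mmp8 goes from 4.29 to 0.03 and that of Mmp10 from 5.65 to 2.38 without mouse 476, and that of Mmp2 from 1.17 to 1.22.

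The summed level of the 10 members was 795, 365, 506 and 658 CPM after DMSO and 3291, 1037 and 1147 CPM after ABT-263. In every control Mmp2, Mmp3 and Mmp14 together made up 90.9% to 94.4% of that sum. Their share was 68.6% in mouse 476 and 89.8% and 88.1% in mice 477 and 478. Mmp3 alone gave 11.8% to 20.4% of the sum after DMSO and 46.3%, 26.7% and 24.2% after ABT-263.

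Marker sums of fibroblasts, macrophages, neutrophils and endothelial cells were also higher in every ABT-263-treated mouse than in any control. Those of basal and wound keratinocytes overlapped between the groups. The counts of markers passing stand beside 12.4% higher and 11.7% lower over all genes tested. Fibroblast markers (Pdgfra, Col1a1, Col1a2, Dcn, Lum and Pi16) summed to 3905 to 5483 CPM after DMSO and to 6123 to 8519 CPM after ABT-263, and 3 of the 6 passed the test, all higher. Macrophage markers summed to 299 to 877 CPM in the controls and to 1001 to 2725 CPM in the treated mice, with 5 of 7 higher. Neutrophil markers were at 99.9 to 1820 CPM and at 5097 to 8318 CPM, with 3 of the 5 tested higher, but S100a8 and S100a9, which keratinocytes also make, gave most of that sum. Among the defining neutrophil genes, Ly6g was at 0 to 0.253 CPM in the controls and at 14.0, 0.101 and 0.172 CPM in mice 476, 477 and 478. Retnlg was at 0.0843 to 1.03 CPM in the controls, at 2.09 and 3.03 CPM in mice 477 and 478, and at 232 CPM in mouse 476. The granulocyte receptor Csf3r reached 78.0 CPM there against 12.4 and 10.7 CPM in the others, above the 1.35 to 3.72 CPM of the controls. The gene for myeloperoxidase, Mpo, stayed at or below 0.719 CPM in every library. Basal keratinocyte markers covered 18002 to 31017 CPM in the controls and 13638 to 35630 CPM in the treated mice, with 0 of 5 higher and 1 lower. The wound keratins Krt6a, Krt6b, Krt16 and Krt17 ranged from 2529 to 18950 CPM and from 9345 to 21747 CPM, with 0 of 4 passing. All 4 endothelial markers were higher, at 288 to 373 CPM against 89.8 to 185 CPM. Markers of T cells (7.60 to 26.2 CPM over all libraries) and mast cells (55.7 to 218 CPM) had no member that passed. Without mouse 476, 3 of 6 fibroblast, 2 of 7 macrophage, 1 of 5 neutrophil and 3 of 4 endothelial markers passed, all higher. Of all genes tested, 6.01% were then higher. The part of these cell types in the MMP levels was not tested.

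Each member was therefore set against the markers of its source within the same library, which takes the library scaling out. Of the 17 ratios computed, 0 passed after adjustment (smallest adjusted p = 0.121, exact permutation test) and 4 had an unadjusted p under 0.05. The design allowed little, since 10 of the 17 would have had to reach the smallest possible p-value for any to pass. The log2 ratio of Mmp2 to the fibroblast markers was -4.68 ± 0.26 after DMSO (SD, n = 4) and -4.08 ± 0.09 after ABT-263 (SD, n = 3), a difference of 0.60 with no overlap between the groups (exact permutation p = 0.0571, adjusted p = 0.121), and 0.55 without mouse 476. That of Mmp14 to the same markers was -4.20 ± 0.22 and -4.60 ± 0.53, a difference of -0.40 with overlap (exact permutation p = 0.257, adjusted p = 0.291), and -0.62 without mouse 476. The summed markers weigh Col1a1 and Col1a2 most, and with the log2 values of the 6 markers averaged in place of the sum the differences were 0.33 for Mmp2 and -0.67 for Mmp14. Lum and Pdgfra had log2 fold changes of 1.65 and 1.72, above that of Mmp2. Mmp3 and Mmp13 were higher relative to fibroblast markers by 1.81 and 3.24 on the log2 scale, each with the groups apart (exact permutation p = 0.0286, adjusted p = 0.121). For Mmp11 the difference was 1.08 with the groups apart (exact permutation p = 0.0571, adjusted p = 0.121) and for Mmp19 it was 1.13 with overlap (exact permutation p = 0.0857, adjusted p = 0.132). Without mouse 476 the differences were smaller, at 0.90 for Mmp3, 1.79 for Mmp13, 0.88 for Mmp11 and 0.56 for Mmp19.

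For the myeloid members the ratios of the groups overlapped. Relative to neutrophil markers, Mmp8 differed by -1.26 (exact permutation p = 0.514, adjusted p = 0.546) and Mmp9 by -0.47 (exact permutation p = 0.829, adjusted p = 0.829) on the log2 scale. Most of that marker sum was S100a8 and S100a9, which keratinocytes also make, so these ratios are not levels per neutrophil. With the markers' log2 values averaged in place of the sum, the differences were -0.77 for Mmp8 and 0.02 for Mmp9. This average weighs all markers alike, also Ly6g and Mpo, which did not pass the filter on low counts. In the controls Ly6g was at 0 to 0.253 CPM, close to the 0.05 CPM added before taking logs. Relative to macrophage markers, Mmp9 differed by 1.59 (exact permutation p = 0.114, adjusted p = 0.162) and Mmp12 by 1.27 (exact permutation p = 0.2, adjusted p = 0.243). Mmp10 differed by 4.97 relative to basal keratinocyte markers (exact permutation p = 0.0857, adjusted p = 0.132) and by 3.73 relative to wound keratins (exact permutation p = 0.143, adjusted p = 0.187). The groups overlapped, since DMSO-treated mouse 483 was above ABT-263-treated mouse 477 in both ratios. Relative to wound keratins it was also above ABT-263-treated mouse 478. With a pseudocount of 0.5 in place of 0.05 CPM the differences for Mmp10 were 3.51 and 2.26, since its level in the controls lies near the pseudocount. Without mouse 476 they were 3.11 and 1.92. Also without that mouse, Mmp8 and Mmp9 differed by -2.97 and -1.28 relative to neutrophil markers, and Mmp9 and Mmp12 by 1.00 and 0.39 relative to macrophage markers. The direction for Mmp9 relative to neutrophil markers rested on single mice, as the difference was 0.51 with control mouse 481 left out and 0.00 with treated mouse 478 left out.

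**Figure D3:**
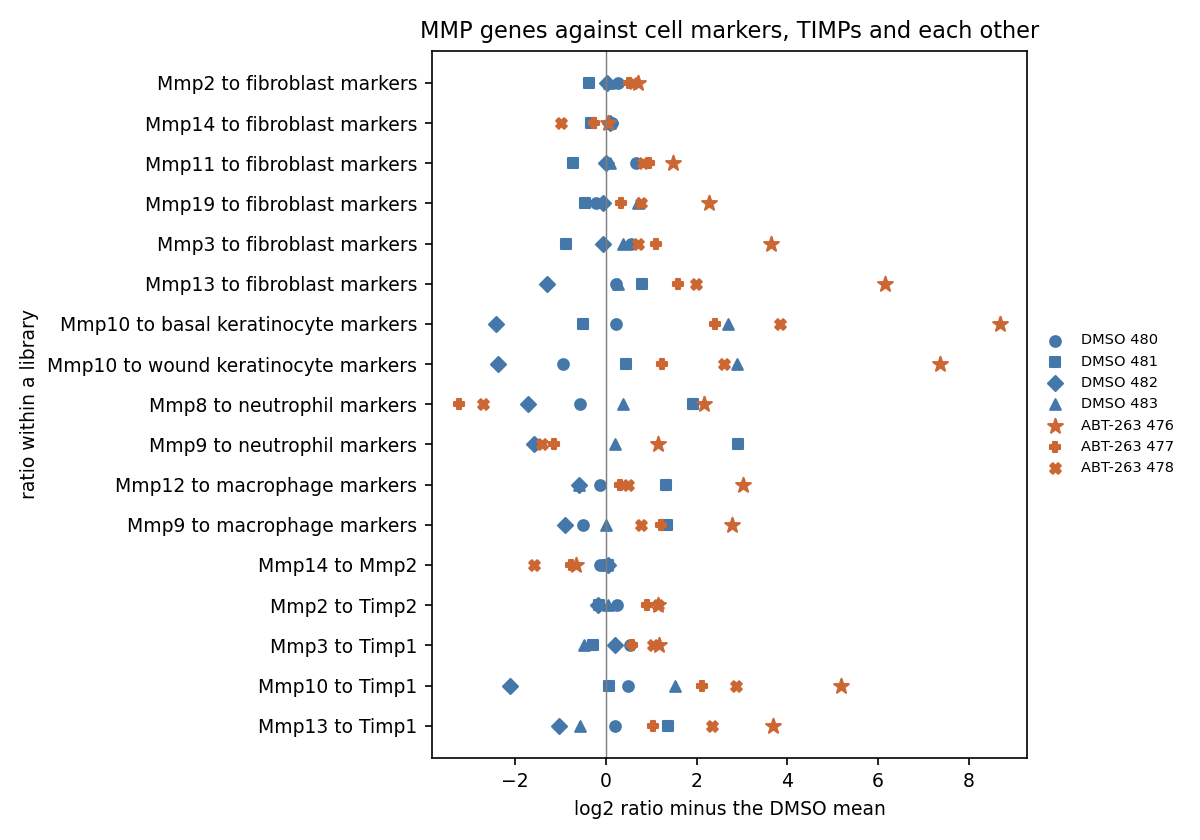
Log2 ratio of members to the summed markers of their cell source, and of members to each other or to a TIMP, within each library, as the difference from the mean of the 4 DMSO-treated mice. Points are mice, and the controls scatter around 0. The 3 ABT-263-treated mice lie wholly below the controls in Mmp14 to Mmp2. They lie wholly above them in Mmp2, Mmp3, Mmp11 and Mmp13 to fibroblast markers, Mmp2 to Timp2, and Mmp3 and Mmp10 to Timp1.

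Of the 5 inhibitor genes tested, 0 were higher and 1, Timp3, was lower after ABT-263 in edgeR. Over all genes tested, 12.4% were higher and 11.7% lower. With the DESeq2 Wald test, Timp1 also passed, with a higher level after ABT-263. Without mouse 476, 0 of the 5 passed in edgeR, with 1 at an unadjusted p under 0.05. Timp3, whose product is bound to the matrix, was at 162, 214, 210 and 231 CPM after DMSO and at 121, 131 and 162 CPM after ABT-263, so that the groups nearly met at 162 CPM. It fell by 0.57 on the log2 scale (SE 0.17, adjusted p = 0.0455 from edgeR). Timp1, which is inducible and inhibits most soluble MMPs, was at 46.4, 21.8, 28.1 and 72.8 CPM and at 283, 78.1 and 56.1 CPM. The groups overlapped, and the log2 fold change of Timp1 was 1.72 (SE 0.63, adjusted p = 0.0836 from edgeR), against 0.67 without mouse 476 (adjusted p = 0.385 from edgeR). Timp2, which also takes part in the activation of pro-MMP2 by MMP14, differed by 0.13 on the log2 scale (adjusted p = 0.667 from edgeR), Timp4 by -0.07 (adjusted p = 0.958 from edgeR), and A2m had 0 counts in every library.

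Per unit of TIMP RNA, the MMP RNA was higher in every ABT-263-treated mouse. The ratio of the summed members to the summed Timp1 to Timp4 CPM was 1.13, 0.67, 0.767 and 0.866 after DMSO and 4.04, 1.60 and 1.55 after ABT-263. The log2 ratio of Mmp2 to Timp2 was -0.93, -1.33, -1.35 and -1.12 in the controls and -0.02, -0.28 and -0.04 in the treated mice, a difference of 1.07 (exact permutation p = 0.0286, adjusted p = 0.121), and 1.03 without mouse 476. Mmp3 differed by 0.93 and Mmp10 by 3.39 relative to Timp1, with the groups apart (exact permutation p = 0.0571 and adjusted p = 0.121 for both), and Mmp13 by 2.36 with overlap (exact permutation p = 0.0857, adjusted p = 0.132). Without mouse 476 these differences were 0.81, 2.50 and 1.69, and with a pseudocount of 0.5 CPM that of Mmp10 was 1.94.

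Genes that act on MMPs were compared by lists, beside 12.4% higher and 11.7% lower over all genes tested. Of 11 activator genes tested, 4 were higher and 0 lower. They were the plasminogen activators Plat (log2 fold change 1.20, adjusted p = 0.00877 from edgeR) and Plau (0.81, adjusted p = 0.0171 from edgeR), the urokinase receptor Plaur (3.11, adjusted p = 0.0375 from edgeR) and the proprotein convertase Pcsk5 (2.28, adjusted p = 0.0143 from edgeR). Plaur was at 242, 39.8 and 13.9 CPM in the treated mice, and mouse 478 lay just below the highest control, at 14.0 CPM. Its log2 fold change without mouse 476 was 1.25, and Plaur then did not pass (adjusted p = 0.0731 from edgeR). Among cytokines and receptors known to induce MMPs, 7 of 13 tested were higher and 0 lower. Il1b, the interleukin-1β gene, went from 5.11, 12.1, 5.80 and 9.86 CPM to 736, 140 and 38.5 CPM, a rise of 5.21 on the log2 scale (adjusted p = 0.0132 from edgeR). Its receptor Il1r1 rose by 2.14 (adjusted p = 0.00997 from edgeR), the oncostatin M receptor Osmr by 1.70 (adjusted p = 0.0139 from edgeR) and Tnf by 3.30 (adjusted p = 0.0191 from edgeR) on the log2 scale, with every treated mouse above every control. Without mouse 476, 3 of the 11 activators and 4 of the 13 cytokine and receptor genes passed, all higher. Of all genes tested, 6.01% were then higher.

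Of 12 genes for AP-1, ETS and RUNX factors, which bind MMP promoters, 3 were higher and 1 lower. Over all genes tested the shares were 12.4% higher and 11.7% lower. Fos was at 6.06, 9.69, 5.54 and 6.74 CPM after DMSO and at 66.7, 23.2 and 28.1 CPM after ABT-263, and rose by 2.49 on the log2 scale (adjusted p = 0.00807 from edgeR). Jun was at 83.5 to 108 CPM and at 148 to 165 CPM, with a rise of 0.67 on the log2 scale (adjusted p = 0.0132 from edgeR), with the groups well apart. Ets1 rose by 1.37 on the log2 scale (adjusted p = 0.0098 from edgeR), and Jund fell by 0.74 (adjusted p = 0.0268 from edgeR), from 365 to 552 CPM in the controls to between 259 and 320 CPM. Fos, Jun and Ets1 also passed without mouse 476, and Jund did not (-0.70, adjusted p = 0.0824 from edgeR). Of 3 uptake receptor genes, Lrp1, whose product takes up several MMPs and their complexes with inhibitors, rose by 1.05 on the log2 scale (adjusted p = 0.0222 from edgeR), and did not pass without mouse 476 (0.80, adjusted p = 0.0615 from edgeR).

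**Figure D4:**
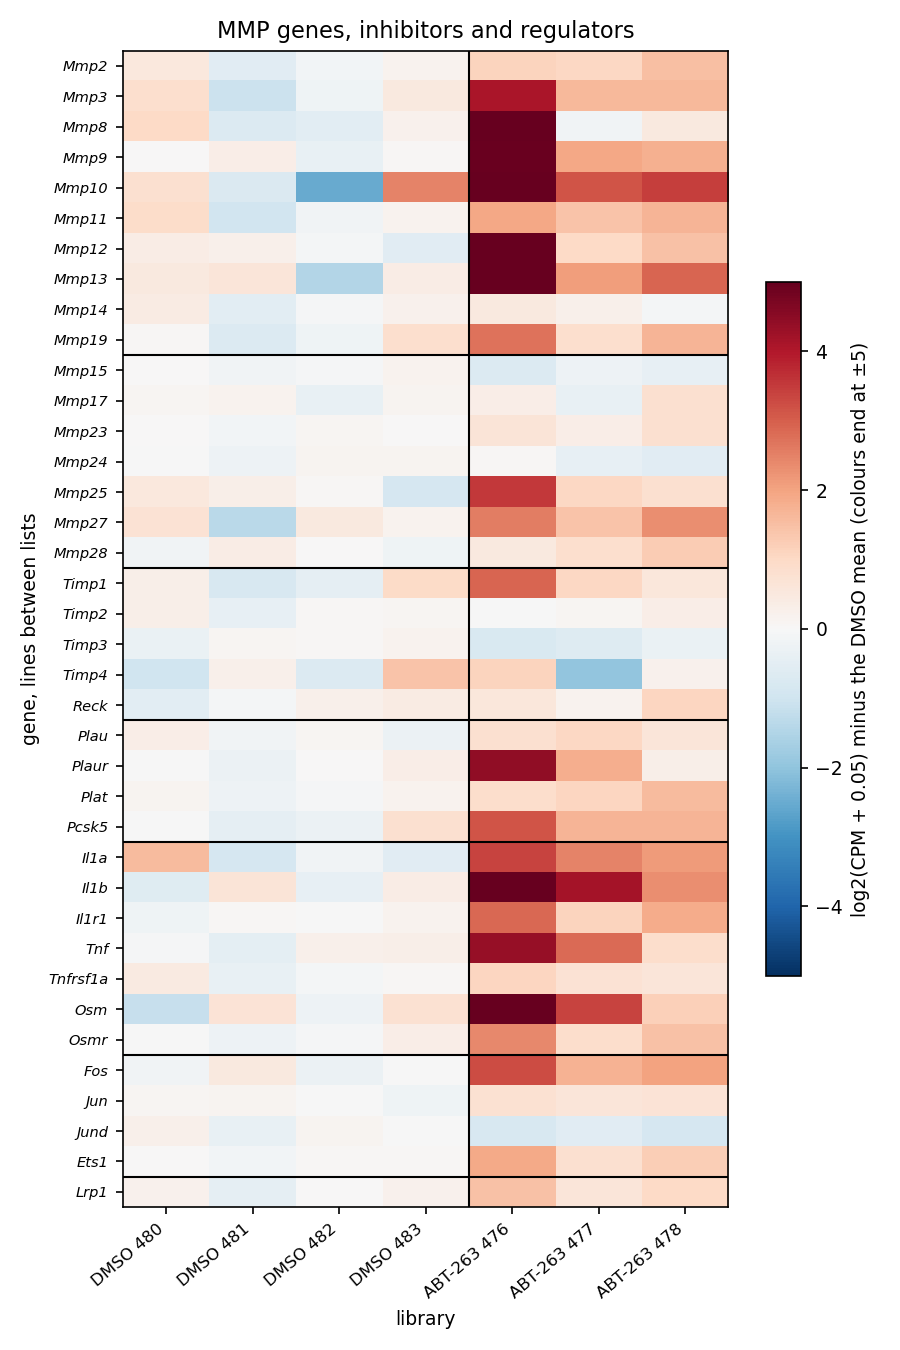
Level of the members, the other MMP genes tested, the inhibitors tested and the regulators that passed the test in each library, as log2(CPM + 0.05) minus the mean of the 4 DMSO-treated mice, with 1 row per gene and 1 column per mouse. Colours end at ±5. Mouse 476 has the highest values in most of the inducible MMPs, Timp1 and the cytokine genes, whereas Mmp2 is highest in mouse 478.

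Genes for 10 MMPs, 5 of them members, stand side by side on chromosome 9 between 7272514 and 7699585, a stretch of 427 kb, and 6 of the 10 had enough counts to be tested. In order along the chromosome, Mmp13, Mmp12, Mmp3, Mmp10, Mmp8 and Mmp27 had log2 fold changes of 4.98, 3.73, 2.76, 5.65, 4.29 and 2.04. The 6 flanking genes tested had smaller fold changes. Dcun1d5, upstream of Mmp13, rose by 0.82 (adjusted p = 0.0412 from edgeR), and beyond Mmp7 the genes Gm10709 and Tmem123 rose by 0.93 (adjusted p = 0.016 from edgeR) and 0.77 (adjusted p = 0.0126 from edgeR) on the log2 scale. Farther out, Dync2h1 and Birc2 had log2 fold changes of -0.29 (adjusted p = 0.298 from edgeR) and -0.04 (adjusted p = 0.914 from edgeR), and Pdgfd, the farthest of them upstream, rose by 1.75 (adjusted p = 0.016 from edgeR), near the value of Mmp27. In mouse 476 the 5 members of the cluster were at 5.50 to 56.4 times the mean of mice 477 and 478. The flanking genes were at 0.771 to 1.66 times that mean, and Mmp27, inside the cluster, was within their range at 1.56 times. A difference between cluster and flanks was not tested. Outside the cluster, Mmp2, Mmp11, Mmp14 and Mmp19 were at 0.902 to 2.60 times that mean, and Mmp9 at 8.44 times.

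**Figure D5:**
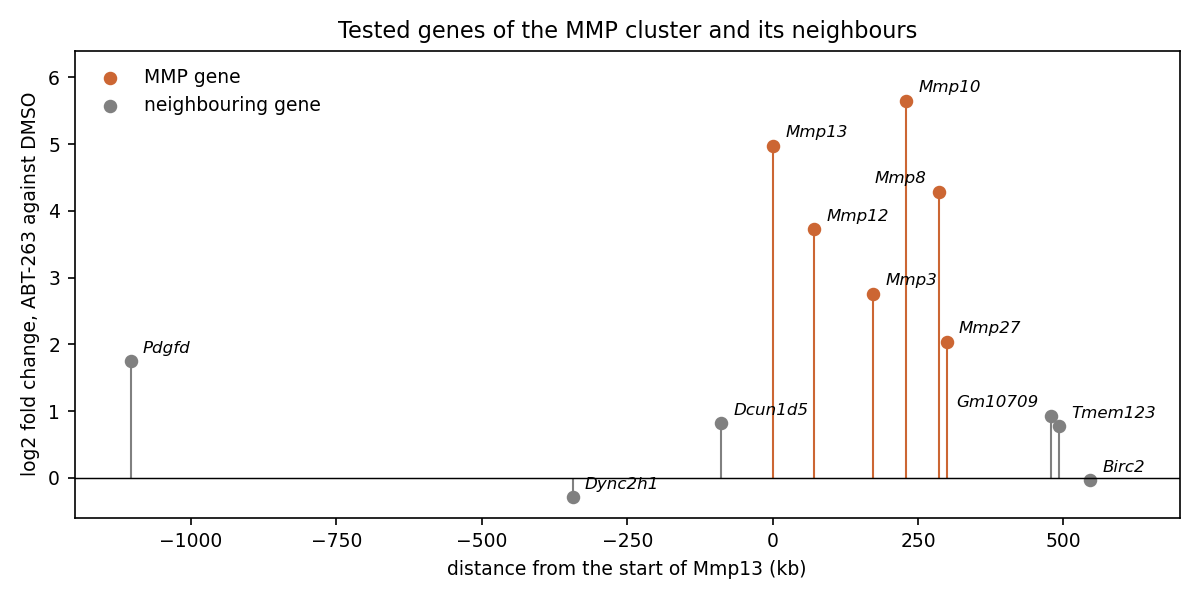
Log2 fold change, ABT-263 over DMSO, of the tested MMP genes of the chromosome 9 cluster and of the flanking genes, by distance in kb from the start of Mmp13, with 1 point per gene and a line from 0 to the point. The 6 MMP genes lie between 2.04 and 5.65 and the 6 flanking genes between -0.29 and 1.75.

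The rest of the mouse family holds 13 genes, 7 of which were tested. Of these 7, 3 were higher and 0 lower, against 12.4% and 11.7% of all genes tested. Without mouse 476, 1 of 8 passed (Mmp28, higher), against 6.01% of all genes tested that were higher. Mmp27, in the cluster, was at 0.295 to 1.39 CPM after DMSO and at 5.18, 2.32 and 4.32 CPM after ABT-263 (log2 fold change 2.04, adjusted p = 0.0237 from edgeR). Mmp23 was at 19.7 to 22.8 CPM and at 33.5, 26.9 and 37.8 CPM (0.61, adjusted p = 0.0231 from edgeR), and Mmp28 (epilysin, an MMP of keratinocytes) at 3.70 to 5.69 CPM and at 6.15, 7.81 and 10.7 CPM (0.89, adjusted p = 0.0377 from edgeR). In none of these 3 was mouse 476 more than 3-fold above the other treated mice. Mmp25, a membrane-anchored MMP of leukocytes, reached 11.2 CPM in mouse 476, against 1.97 and 1.65 CPM in the others, all above the controls (log2 fold change 2.30, adjusted p = 0.0511 from edgeR). Mmp15, a membrane MMP related to Mmp14, was at 31.9 to 40.7 CPM in the controls and at 22.0, 29.7 and 26.9 CPM in the treated mice, the only tested gene of the family with all treated mice below all controls, and did not pass (-0.45, adjusted p = 0.0588 from edgeR). Mmp17 and Mmp24 had log2 fold changes of 0.32 (adjusted p = 0.506 from edgeR) and -0.34 (adjusted p = 0.575 from edgeR). Mmp7, Mmp20 and Mmp21 had 0 counts in every library, and Mmp1a had 15 counts over all 7 libraries.

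For Mmp2, Mmp10 and Mmp12, the genes with the most similar profile were sought among the 17959 tested, by the root mean square difference of log2 CPM over the 7 libraries after centring each gene on its mean. The profile of Mmp2 was nearest to that of Ctsk, the gene for the collagen-degrading cathepsin K (0.11), and then to Nat8f3 (0.15) and Aebp1 (0.16), against a median of 0.79 over all genes. Ctsk was at 162, 67.6, 97.5 and 144 CPM after DMSO and at 224, 234 and 293 CPM after ABT-263. Among the genes nearest to Mmp10 were Nos2, which encodes the inducible nitric oxide synthase (1.11), and Il24 (1.13), with a median of 3.19. Mmp12 was nearest to Slamf8 (0.38), Gbp8 (0.41) and AW112010 (0.42), with a median of 1.81. The profiles of Mmp10 and Mmp12 and of the genes named for them were all dominated by mouse 476, as Nos2 at 94.0 CPM there against 2.32 and 2.56 CPM in the other treated mice shows.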

How the data were processed

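Per the labels and the study's methods, RNA of dorsal skin was sequenced with 1 library per mouse. The authors aligned reads to mm10 with STAR 2.7.9a and counted uniquely aligned proper pairs on the same strand per Ensembl gene with featureCounts (Subread 1.6.2). They deposited these values as raw counts, which were used here. The RNA kit is named differently in the labels and in the methods. The authors' table of variance-stabilized values was not used. Symbols, positions and exon lengths were looked up in GENCODE M21 (GRCm38), where 55190 of 55450 identifiers matched, and promoters were taken from RefSeq (GRCm38.p6).

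Counts were tested with edgeR 4.0.16 in R 4.3.3 (TMM, filterByExpr, robust quasi-likelihood F test, two-sided, Benjamini-Hochberg over 17959 genes, threshold 0.05). The depth of 20344364 to 43562330 counts per library left all members testable. CPM carry TMM scaling, and RPKM are CPM per kb of merged exons. Ratios used log2(CPM + 0.05) and exact permutation tests over 35 splits. For a gene at 0 counts, the limit given is that of 3 counts, which covers counting error only. Alternatives were the DESeq2 1.42.0 Wald test, other scalings and filters, protein-coding genes, thinned counts, leaving out each mouse and, added after the data were seen, RPKM per longest transcript. With 200 genes changed on simulated data, in this comparison of 17959 genes, 64% to 79% of 4-fold and 10% to 15% of 2-fold changes were found, and 4.4% to 6.25% of the genes found were false. Named were all members, other tested MMP genes, Timp1 to Timp4, up to 4 regulators per list that passed, and the 3 nearest profiles of Mmp2, Mmp10 and Mmp12, of which 1 is not reported here. The marker genes named singly, the genes flanking the cluster, A2m and MMP genes below the filter lie outside this rule. Members and lists were chosen with earlier results of these data known.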

Additional observations from a re-analysis of the deposited data

Results flagged for a closer look

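Among the 4 DMSO-treated mice, 1 mouse stood far from the other controls in 5 of 50 measures, where chance gives about 2.50. The gap to the nearest other mouse, as a share of the group's range on the log2 scale, was above the 95% limit of 0.829 of Dixon's test for 4 samples in each. For Mmp13 it was 0.897, with mouse 482 the lowest at 1.39 CPM against 5.05 to 5.86 CPM, and for Mmp17 it was 0.877, with mouse 482 the lowest at 1.54 CPM against 2.17 to 2.28 CPM. The summed basal keratinocyte markers had a share of 0.882, with mouse 480 the highest at 31017 CPM, and the summed hair follicle markers one of 0.959, with mouse 481 the highest at 2130 CPM against 22.0 to 26.5 CPM. For the log2 ratio of Mmp14 to fibroblast markers it was 0.903, with mouse 481 the lowest at -4.52. Their causes were not tested. Groups of 3 mice were not examined, so the ABT-263-treated mice were not examined by this test.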

How the results depend on the processing

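All member fold changes kept their direction in each of the 139 alternatives, of which 103 also kept their side of the threshold. The number of members passing was 8. It was 9 with the DESeq2 Wald test, which added Mmp8 (adjusted p = 0.0187). With at least 10 counts in every library it was 7, since Mmp10 was then not tested. With every gene with a count tested it was 2 (Mmp2 and Mmp11), with 8 at an unadjusted p under 0.05 from edgeR. In that fit 3388 of all 30645 genes passed. Leaving out 1 mouse gave 0 to 7. Without DMSO-treated mouse 482 it was 0, with 9 members at an unadjusted p under 0.05 and a smallest adjusted p of 0.0543 from edgeR, without mouse 483 2, without mice 481 and 476 4 each, and without mice 480 and 478 5 each. All genes passing fell from 4342 to between 1735 and 4169 when 1 mouse was left out, and 1824 did without mouse 482. The other MMP genes passing were 3, against 5 with the Wald test and 0 to 4 with 1 mouse left out. The inhibitors passing were 1, against 2 with the Wald test (Timp1 and Timp3), 0 with every gene with a count tested (2 at an unadjusted p under 0.05) and 0 to 1 with 1 mouse left out. Inducers, factors and uptake genes passing were 12, against 6 to 11 with 1 mouse left out, and activators 4, against 3 to 5. The log2 ratio of Mmp9 to neutrophil markers differed by -0.47, by 0.02 when the markers' log2 values were averaged and by -1.28 to 0.51 with 1 mouse left out. The causes were not tested. No paired analysis was possible because no mouse number is shared between the groups. With a mouse left out the ratios were compared as values only, since so few mice leave the exact permutation test unable to pass. Mmp8 and Mmp10 were both near or under 1 CPM in most controls. With counts thinned to the smallest library, their adjusted p-values from edgeR were 0.0702 and 0.0381, against 0.0715 and 0.041 without thinning.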
